A study of Xenopus laevis with 115 samples.

Results

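Ribosomes carry 4 ribosomal RNAs (rRNAs). The 18S rRNA is the RNA of the small subunit, and the 28S and 5.8S rRNAs belong, with 5S rRNA, to the large subunit. In animals the 18S, 5.8S and 28S rRNAs are cut from a single precursor that RNA polymerase I transcribes from repeated gene copies, and the frog egg stores a large maternal supply of ribosomes that the early embryo uses. Mature rRNA has no long poly(A) tail, so selection on poly(A) removes most of it, and the rRNA left in such a library does not measure how much rRNA the cells held.

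The account concerns 8 sequences of the count tables, called targets here, of the sizes of Xenopus 18S and 28S rRNA. The 18S-sized ones are XBmRNA22077, XBmRNA22080, XBmRNA22083 and XBmRNA22091, all of 1 length. The 28S-sized ones are XBmRNA22078 and XBmRNA22081 of 4113 bases, XBmRNA22087, which is 1 base longer, and XBmRNA22089, which is 1 base shorter. They are 8 of 72076 targets in one set of libraries and of 44441 in the other. They were chosen by their lengths and by their high counts in these same libraries, so their levels are given as a description. The choice named contrasts to describe but no direction of a difference, and it was made with earlier results of these data known.

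The study concerns inhibitors of the acetyltransferases p300 and CBP, given to donor cells before nuclear transfer (NT), in which a donor nucleus is placed in an egg. All embryos were wild-type Xenopus laevis, and poly(A) RNA was sequenced from 45 libraries with the inhibitor SGC-CBP30 (the CBP30 set) and 40 with A-485 (the A485 set), each in 3 experiments. In the CBP30 set the groups were stage 18 donor endoderm of embryos given 40 µM CBP30 (5 libraries) or its solvent DMSO (6), stage 11 ectoderm of NT embryos made from CBP30 donors (11) or DMSO donors (12), and stage 11 ectoderm of fertilised (IVF) embryos (11). In the A485 set they were donor endoderm given 30 µM A485 (6) or A486, a control the records do not describe further (6), NT ectoderm from A485 donors (11) or A486 donors (13), and IVF ectoderm (4, all of experiment 1). Donor embryos were fertilised embryos treated with the compound from stage 12 until stage 18, and the NT embryos themselves have no treatment recorded. Ectoderm libraries began from 400 ng of RNA and donor libraries from 300 ng, so tissue, stage and RNA input change together and cannot be told apart. The records do not say whether a library held 1 embryo or several, or how far the libraries of an experiment were separate clutches, so p-values measure the spread between these libraries only.

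Total expected counts ran from 6468976 to 24923622 per library. In 2 libraries, A485 donor library 1 and A485 NT library 1 of experiment 3, the tissue label contradicts the title. Both A486 donor libraries of experiment 1 carry the cell type label ectoderm beside a tissue label of endoderm, and they are kept as donors throughout. Among the libraries that stood far above their groups in these targets were IVF library 1 of experiment 3 and CBP30 donor library 1 of experiment 3 in the CBP30 set, and A486 donor library 1 of experiment 1 and A485 NT library 5 of experiment 2 in the A485 set. Results that rest on them are given with and without them, except for counts of calls where a lone library would remain. The identifiers are not paired with gene symbols in the tables used, so lists of RNA polymerase I, rRNA processing, ribosomal protein and tissue marker genes could not be read, and the labelled tissues were not checked against markers.

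The lengths of the long targets fit the rRNA label. RefSeq's table for the assembly Xenopus_laevis_v10.1 lists 12 rRNA genes of more than 1000 bases on chromosome 3L, and their lengths are those of the 12 such targets numbered from XBmRNA22077 to XBmRNA22095, in the same order. That match rests on length and order alone, and it does not extend to the short rRNAs, of which the table lists 11 genes there and the run holds 9 targets (8 and 7 of them of the 5.8S length). Among the targets just outside the length rule, XBmRNA22092 (4111 bases) averaged 0.571% of a library's counts in the CBP30 set, more than some members. In the A485 set it averaged 0.229%, less than every member. XBmRNA22084 (4109 bases) averaged 0.00670% and 0.00712%, XBmRNA22095 (4152 bases) 0.00216% and 0.00180%, and XBmRNA22094 (1827 bases, 1 more than the 18S-sized members) 0.000395% and 0.000309%. Just inside it, each 18S-sized target averaged 0.408% and 0.373%, each of 4113 bases 1.62% and 1.52%, XBmRNA22087 0.430% and 0.397%, and XBmRNA22089 0.405% and 0.284%.

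The 8 targets gave 4 separate measures. The 4 18S-sized targets had equal counts in all 45 libraries of the CBP30 set and in all 44 files of the other, and so had the 2 of 4113 bases. No sequence of the targets was at hand, so how alike they are was not checked. The counting program shares out reads that fit several targets, so equal counts cannot say which gene copy was transcribed. For the targets whose counts differ, the division of reads and the transcription of a copy cannot be told apart here. The summed value of a size depends less on this division. The 28S-sized sum still leaves out XBmRNA22092, so it can change with the reads given to that target. In the text below, the 18S-sized and 28S-sized shares are the summed expected counts of the 4 targets of each size as a percent of the library total. Counting error was small throughout: the widest 95% Clopper-Pearson interval reached 1.44% of its value to either side, and covers counting only.

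In the CBP30 set, NT ectoderm held more 18S-sized and 28S-sized counts than most IVF ectoderm. The 18S-sized share ran from 1.22% to 2.51% in DMSO NT libraries (median 1.66%, n = 12) and from 1.47% to 2.29% in CBP30 NT libraries (median 1.82%, n = 11), against 0.439% to 5.48% in IVF libraries (median 0.565%, n = 11). The highest IVF value came from library 1 of experiment 3, and without it the IVF range ended at 1.40%. All 11 CBP30 NT libraries then lay above every IVF library, and so did 10 of the 12 DMSO NT libraries. The mean share was 1.78% ± 0.415 in DMSO NT and 1.82% ± 0.261 in CBP30 NT libraries, against 1.08% ± 1.48 in all IVF libraries and 0.642% ± 0.282 in the 10 IVF libraries left (SD).

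The 28S-sized share went the same way. It ran from 2.40% to 7.75% in DMSO NT (median 4.59%) and from 2.08% to 9.62% in CBP30 NT libraries (median 5.03%), against 0.961% to 7.14% in IVF libraries (median 1.37%). The groups overlapped, with 2 DMSO NT and 3 CBP30 NT libraries above every IVF library, or 8 and 9 once IVF library 1 of experiment 3 was left out. The ratio of mean shares, NT over IVF, was 2.43 for DMSO and 2.76 for CBP30 libraries with all IVF libraries, and 3.24 and 3.67 without that one.

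**Figure D1:**
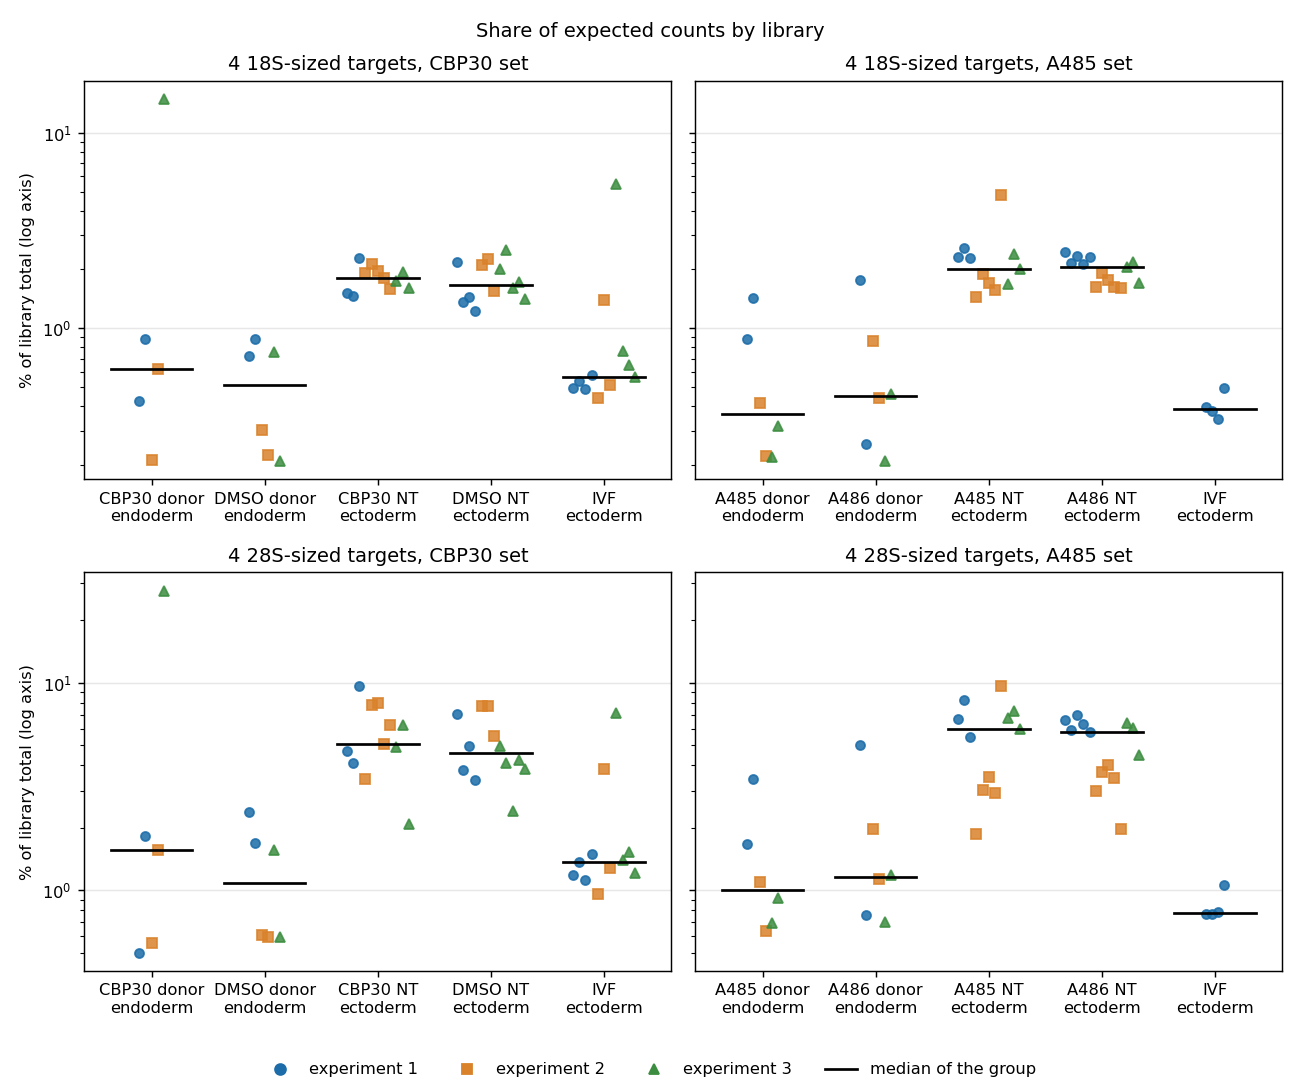
Summed expected counts of the 4 18S-sized targets (upper panels) and the 4 28S-sized targets (lower panels) as a percent of each library's total, on log axes, for the 5 groups of the CBP30 set (left) and of the A485 set (right). Each point is 1 library, its shape and colour give the experiment, and the bar is the group's median: medians of NT ectoderm lie at 1.66% to 2.05% for the 18S size, above those of donor endoderm and IVF ectoderm at 0.366% to 0.622%.

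Per target, in the fit across all targets, 3 of 8 members were called higher in DMSO NT than in IVF ectoderm, where 12.6% of the 24916 targets tested were called higher (edgeR's quasi-likelihood test, Benjamini-Hochberg adjusted p under 0.05). In CBP30 NT against the same IVF libraries, 4 of 8 were called higher, beside 13.6% of 24936. The log2 fold changes of the 4 separate measures ran from 0.54 to 1.83 for DMSO NT and from 0.59 to 2.15 for CBP30 NT. The medians over all targets tested were 0.01 and 0.00. Without the outlying IVF library, 7 of 8 members were called higher in DMSO NT (background 12.3%) and 8 of 8 in CBP30 NT (background 13.3%). In both contrasts the members gained were the 4 shorter targets, whose counts were equal in all 45 libraries. That library thus decided the call of a single measure, counted here once for each of its 4 copies. The counts of members called, set beside these backgrounds, are not counts of separate measures.

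For the 18S-sized targets 1 library decided the call. Each held 0.306% to 0.627% in DMSO NT and 0.368% to 0.573% in CBP30 NT libraries, against 0.110% to 1.37% in IVF libraries. Their log2 fold change over IVF was 0.54 ± 0.39 (SE) for DMSO NT and 0.59 ± 0.40 for CBP30 NT, with edgeR adjusted p of 0.345 and 0.307. Without the outlying IVF library these values were 1.34 ± 0.19 and 1.40 ± 0.19, both past the threshold.

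The 28S-sized targets of 4113 bases, the most abundant of the members, rose in both NT groups. XBmRNA22078 held 1.01% to 3.15% (median 2.01%) in DMSO NT and 0.735% to 3.76% (median 1.99%) in CBP30 NT libraries, against 0.369% to 3.32% (median 0.582%) in IVF libraries, and the ranges overlapped. The log2 fold change was 1.02 ± 0.34 for DMSO NT (edgeR adjusted p = 0.0351) and 1.13 ± 0.37 for CBP30 NT (edgeR adjusted p = 0.0287). XBmRNA22078 and its equal copy had the highest counts of all targets in 19 of the 23 NT libraries of the set.

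XBmRNA22089 also rose in both. It held 0.183% to 1.29% (median 0.357%) in DMSO NT and 0.160% to 1.25% (median 0.543%) in CBP30 NT libraries, against 0.0185% to 0.270% (median 0.107%) in IVF libraries. Its log2 fold change was 1.83 ± 0.41 (edgeR adjusted p = 0.00297) and 2.15 ± 0.43 (edgeR adjusted p = 0.000884). XBmRNA22087 gave 1.39 ± 0.61 for DMSO NT, which missed the threshold (edgeR adjusted p = 0.103), and rose by 2.12 ± 0.61 in CBP30 NT (edgeR adjusted p = 0.0127). Both contrasts use the same IVF libraries, so they are not independent of each other.

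Within the single experiments of the CBP30 set the mean shares of NT libraries lay above those of IVF libraries in the 28S size, by different amounts. In experiment 1 the 28S-sized share was 4.80% ± 1.66 in DMSO NT (n = 4) and 6.13% ± 3.04 in CBP30 NT (n = 3), against 1.29% ± 0.176 in IVF libraries (n = 4). In experiment 2 it was 7.0% ± 1.26 (n = 3) and 6.08% ± 1.91 (n = 5), against 2.02% ± 1.56 (n = 3). Experiment 3, which holds the outlying IVF library, gave 3.90% ± 0.935 (n = 5) and 4.42% ± 2.13 (n = 3), against 2.81% ± 2.88 in the 4 IVF libraries and 1.37% ± 0.157 in the 3 left without it. These shares leave out the 3 28S-sized targets outside the rule. With both NT groups pooled they averaged 5.37%, 6.43% and 4.09% in experiments 1, 2 and 3. Adding those 3 targets gave 5.54%, 6.76% and 5.88%, and 1.59% in the 3 IVF libraries left in experiment 3.

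Within experiment 1 alone 6 of 8 members were called higher for DMSO NT, beside 1.34% of all targets tested, and 6 for CBP30 NT, beside 3.44%. Within experiment 2 none was, beside 11.6% and 8.92%, and within experiment 3 none was, beside 2.62% and 0.375%. The 18S-sized targets gave log2 fold changes of -0.17 for DMSO NT and -0.25 for CBP30 NT within experiment 3, which missed the threshold and whose sign rested on 1 library. The 18S-sized share there was 5.48% in IVF library 1 and 0.565% to 0.761% in the other 3 IVF libraries. Without library 1 the values of XBmRNA22077 within experiment 3 were 1.49 for DMSO NT (edgeR adjusted p = 0.0282) and 1.39 for CBP30 NT (edgeR adjusted p = 0.0759), and 6 of 8 members were called higher for DMSO NT, beside 0.916% of all targets, and none for CBP30 NT, beside 0%. The test of a difference between experiments missed the threshold for all members in both contrasts (lowest edgeR adjusted p, 0.0643, for XBmRNA22087 in DMSO NT), where 8.83% of targets passed it for DMSO NT and 2.55% for CBP30 NT.

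In the A485 set the NT and IVF libraries of experiment 1, the only one with IVF files tied to a sample, did not overlap in any member. The 18S-sized share was 2.45%, 2.15%, 2.35%, 2.14% and 2.32% in the 5 A486 NT libraries and 2.33%, 2.58% and 2.28% in the 3 A485 NT libraries, against 0.398%, 0.379%, 0.345% and 0.496% in the 4 IVF libraries. The 28S-sized share was 6.63%, 5.88%, 7.0%, 6.32% and 5.76% in A486 NT and 6.65%, 8.28% and 5.48% in A485 NT libraries, against 0.767%, 0.770%, 0.784% and 1.06% in IVF libraries. Every NT library of this experiment thus stood above every IVF library tied to a sample in both sizes. The ratio of mean shares over IVF was 5.64 for A486 NT and 5.92 for A485 NT in the 18S size, and 7.47 and 8.05 in the 28S size.

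All 8 members were called higher in A486 NT, beside 14.8% of 20627 targets tested, and 7 of 8 in A485 NT, beside 11% of 21457. The ranges of all 8 did not overlap with IVF in either contrast, and 10.8% and 23.6% of the targets tested were likewise separated upward. The 18S-sized targets had log2 fold changes of 2.55 ± 0.14 in A486 NT (edgeR adjusted p = 6.97e-06) and 2.41 ± 0.20 in A485 NT (edgeR adjusted p = 0.00103). Those of 4113 bases gave 3.02 ± 0.16 (edgeR adjusted p = 6.97e-06) and 2.77 ± 0.28 (edgeR adjusted p = 0.00193). Both contrasts use the same 4 IVF libraries and rest on 1 experiment.

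XBmRNA22089 held 0.487%, 0.489%, 0.692%, 0.559% and 0.302% in A486 NT and 1.18%, 0.669% and 1.43% in A485 NT libraries, against 0.121%, 0.0721%, 0.0604% and 0.0526% in IVF libraries. Its log2 fold change was 2.77 ± 0.32 (edgeR adjusted p = 0.000483) and 3.69 ± 0.42 (edgeR adjusted p = 0.00331). XBmRNA22087 was the weakest of the 4 measures. It held 0.105% to 0.131% in A486 NT and 0.0899% to 0.132% in A485 NT libraries, against 0.0119% to 0.0846% in IVF libraries, with log2 fold changes of 1.51 ± 0.50 (edgeR adjusted p = 0.0462) and 1.25 ± 0.61 (edgeR adjusted p = 0.177). Its call in A486 NT was lost when any of 8 of the 9 libraries was left out (all but IVF library 3).

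**Figure D2:**
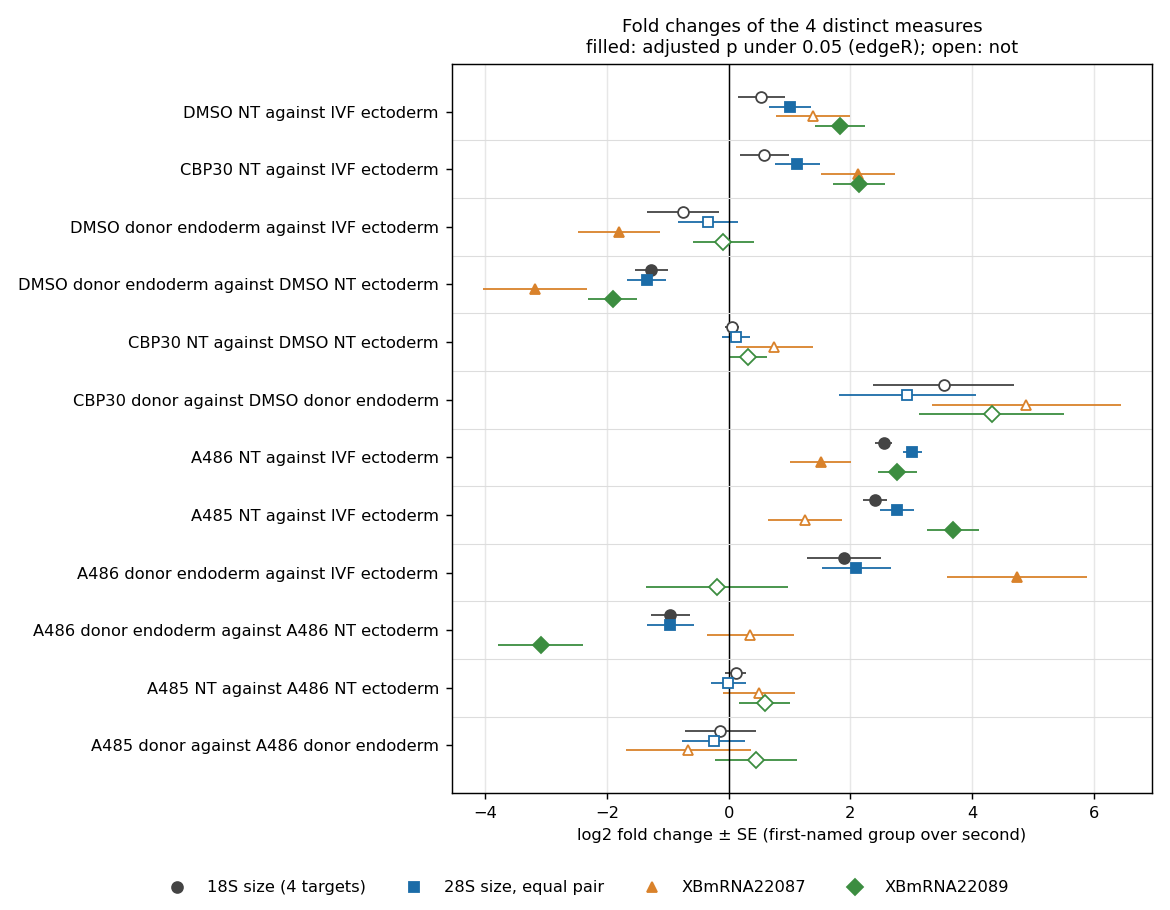
Log2 fold change with its SE of the 4 distinct measures in the 12 contrasts, first-named group over second, on the x axis. Filled marks passed an adjusted p of 0.05 and open marks did not: NT against IVF lies to the right of 0, control donors against their NT ectoderm mostly to the left, and the inhibitor contrasts have open marks only.

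Control donor endoderm, given DMSO or A486, held less of both sizes in most libraries than the NT ectoderm made from it. Inhibitor donors were not set against their NT ectoderm. In the CBP30 set the 18S-sized share was 0.209% to 0.887% (median 0.512%, n = 6) in DMSO donors, against 1.22% to 2.51% in DMSO NT ectoderm, and the 28S-sized share 0.594% to 2.37% (median 1.08%), against 2.40% to 7.75%. The groups did not overlap in either size. All 8 members were called lower, beside 34% of 27579 targets tested, and 5 of them did not overlap, beside 25.3%. In this contrast large parts of the transcriptome differ, so the members' share of calls stands against a high background.

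The 18S-sized targets fell by 1.27 ± 0.28 on the log2 scale (edgeR adjusted p = 0.000458), those of 4113 bases by 1.35 ± 0.32 (edgeR adjusted p = 0.0011), and XBmRNA22089 by 1.91 ± 0.40 (edgeR adjusted p = 0.000357). XBmRNA22087 fell by 3.18 ± 0.85 (edgeR adjusted p = 0.00285), at 0.00895% to 0.0937% in DMSO donors, against 0.059% to 1.66% in DMSO NT. The gap lay in experiments 1 and 2. In experiment 3, XBmRNA22087 was at 0.0494% and 0.0937% in the donors, against 0.059% to 0.100% in NT libraries, and the difference between experiments passed the threshold (edgeR adjusted p = 0.000375, beside 27.4% of targets with such a difference). In bulk tissue, fewer cells of a type and less RNA per cell cannot be told apart, and a share left after poly(A) selection measures neither.

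The A486 donors had an 18S-sized share of 0.211% to 1.76% (median 0.450%, n = 6), against 1.60% to 2.45% (median 2.05%, n = 13) in A486 NT ectoderm, and a 28S-sized share of 0.704% to 5.02% (median 1.16%), against 1.98% to 7.0% (median 5.76%). Only library 1 of experiment 1 reached into the NT range, and without it the donors ended at 0.857% and 1.96%. Of the members, 7 of 8 were called lower, beside 34.5% of 22718 targets. The 18S-sized targets and those of 4113 bases each fell by 0.96, with SEs of 0.32 and 0.39 (edgeR adjusted p = 0.011 and 0.0327), or by 1.51 and 1.46 without that library. XBmRNA22089 fell most, by 3.09 ± 0.70 (edgeR adjusted p = 0.000557). The log2 fold change of XBmRNA22078 ran from -2.19 to 0.01 over the settings run. Without experiment 3, 1 of 8 members was called lower, beside 31.9% of targets, and within experiment 1 it was 0, beside 29.3%.

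XBmRNA22087 was not called in that contrast (log2 fold change 0.35 ± 0.71, edgeR adjusted p = 0.674). Its experiments disagreed. The donors held 1.46% and 0.0683% in experiment 1, 0.0401% and 0.0143% in experiment 2 and 0.167% and 0.376% in experiment 3, against 0.105% to 0.131%, 0.155% to 1.08% and 0.386% to 0.786% in A486 NT libraries of those experiments. The difference between experiments passed the threshold for XBmRNA22087 (edgeR adjusted p = 0.000837) and for the targets of 4113 bases (edgeR adjusted p = 0.031), beside 41.9% of all targets.

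Against IVF ectoderm the donors showed no common direction. In the CBP30 set 3 of 6 DMSO donors lay below every IVF library in both sizes and the other 3 lay within the IVF range, with mean 18S-sized shares of 0.516% ± 0.304 in donors and 1.08% ± 1.48 in IVF libraries. One member of 8, XBmRNA22087, was called, and lower (log2 fold change -1.80 ± 0.67, edgeR adjusted p = 0.0237), beside 33.6% of 26208 targets called lower. The 18S-sized targets gave -0.75 ± 0.59, and 0.06 ± 0.33 without the outlying IVF library, so even the sign of that value rested on it. Within experiment 1 the 18S-sized targets were higher in the donors, by 0.93 (edgeR adjusted p = 0.000917, from 0.000917 to 0.937 over the settings run). For XBmRNA22087 the experiments differed (edgeR adjusted p = 0.0377, beside 36.9% of targets).

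Only 2 A486 donor libraries share an experiment with IVF ectoderm, and they disagreed. The 18S-sized share was 1.76% and 0.256% in the donors, against 0.345% to 0.496% in IVF libraries, and the 28S-sized share 5.02% and 0.762%, against 0.767% to 1.06%. One donor lay above and the other below all IVF libraries, the latter narrowly in the 28S size (0.762% against 0.767%). The fit called 7 of 8 members higher, beside 24.6% of 22089 targets, with 1.89 ± 0.60 for the 18S-sized targets (edgeR adjusted p = 0.0363). With IVF library 1, 2, 3 or 4 left out it called 7, 1, 1 and 3 higher, beside 24.7%, 20.7%, 21.3% and 23.3% of targets. Leaving out a donor library leaves a lone donor, which is assumed to vary like the IVF libraries. The log2 fold change of XBmRNA22077 ran from -0.06 to 2.68 over the settings run, and that of XBmRNA22078 from 0.34 to 2.86. XBmRNA22089 was the exception, at 0.0014% in donor library 1 and 0.0866% in donor library 2, against 0.0526% to 0.121% in IVF libraries. These 2 libraries also carry the cell type label ectoderm beside a tissue label of endoderm.

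No difference between inhibitor and control passed the test for any member. In NT ectoderm the 18S-sized share averaged 1.82% ± 0.261 with CBP30 and 1.78% ± 0.415 with DMSO donors, and 2.25% ± 0.935 with A485 and 1.99% ± 0.303 with A486 donors. None of 8 members was called in either contrast by edgeR or DESeq2, none had an unadjusted p under 0.05 by edgeR, and the backgrounds were 0% of 25668 and 0.0339% of 20667 targets. For the 18S-sized targets the 95% interval of the log2 fold change ran from -0.18 to 0.29 for CBP30 over DMSO and from -0.24 to 0.47 for A485 over A486. The interval was wider for those of 4113 bases, -0.34 to 0.59 and -0.59 to 0.58, and widest for XBmRNA22087, -0.56 to 2.06 and -0.73 to 1.72. One A485 NT library, library 5 of experiment 2, had 4.83% and 9.65% in the 2 sizes and set the higher A485 mean: without it the A485 mean was 1.99% ± 0.392.

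In donor endoderm, 1 library set the CBP30 mean apart from that of DMSO. The 18S-sized share of the 5 CBP30 donors was 0.423%, 0.878%, 0.213%, 0.622% and 14.9%, against 0.209% to 0.887% in the 6 DMSO donors, and the 28S-sized share 0.50%, 1.82%, 0.556%, 1.57% and 27.7%, against 0.594% to 2.37%. Together the 8 members took 42.6% of all counts of that CBP30 library, the only one of its group in experiment 3. The log2 fold changes of 2.93 to 4.89 were not called (lowest edgeR adjusted p, 0.334, with 8 of 8 members at an unadjusted p under 0.05, beside 0% of 23544 targets called), and DESeq2 gave the members no adjusted p. Without it the mean 18S-sized share was 0.534% ± 0.284 in CBP30 donors and 0.516% ± 0.304 in DMSO donors.

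A485 donors had 18S-sized shares of 0.221% to 1.44% (median 0.366%), against 0.211% to 1.76% (median 0.450%) in A486 donors, and the ranges overlapped nearly in full. None of 8 members was called by edgeR or DESeq2, none had an unadjusted p under 0.05 by edgeR, and 0% of 20220 targets were called. The 95% interval for the 18S-sized targets, -1.39 to 1.11 on the log2 scale, leaves room for changes of either sign.

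Which 28S-sized target took the reads varied widely between libraries. Counting all 7 28S-sized targets of the numbered run, the pair of 4113 bases took 32.9% to 88.8% of their counts in the NT libraries of the CBP30 set and 42.8% to 89.6% in those of the A485 set. XBmRNA22087 took 1.07% to 22.8% and 1.25% to 30.2%, and XBmRNA22089 1.62% to 28.2% and 1.46% to 25.3%. XBmRNA22092, outside the rule by 1 base, took 2.10% to 53.2% and 2.24% to 46.7%, and in 4 libraries of the CBP30 set and 1 of the A485 set it exceeded the pair.

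This make-up differed between experiments with both donor treatments pooled, as a description that was not tested. In experiment 3 of the CBP30 set XBmRNA22087 took 1.07% to 2.73% in all 8 NT libraries, against 2.26% to 22.8% in the 7 of experiment 1 and 3.80% to 17.2% in the 8 of experiment 2. XBmRNA22092 took 3.55% to 53.2% in experiment 3, against 2.35% to 3.75% in experiment 1 and 2.10% to 20.5% in experiment 2. In the A485 set XBmRNA22087 took 1.45% to 1.92% in the 8 NT libraries of experiment 1, 1.25% to 30.2% in the 10 of experiment 2 and 1.70% to 14.8% in the 6 of experiment 3. The NT libraries of a single experiment also spread widely, as XBmRNA22092 did in experiment 3 of the CBP30 set.

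**Figure D3:**
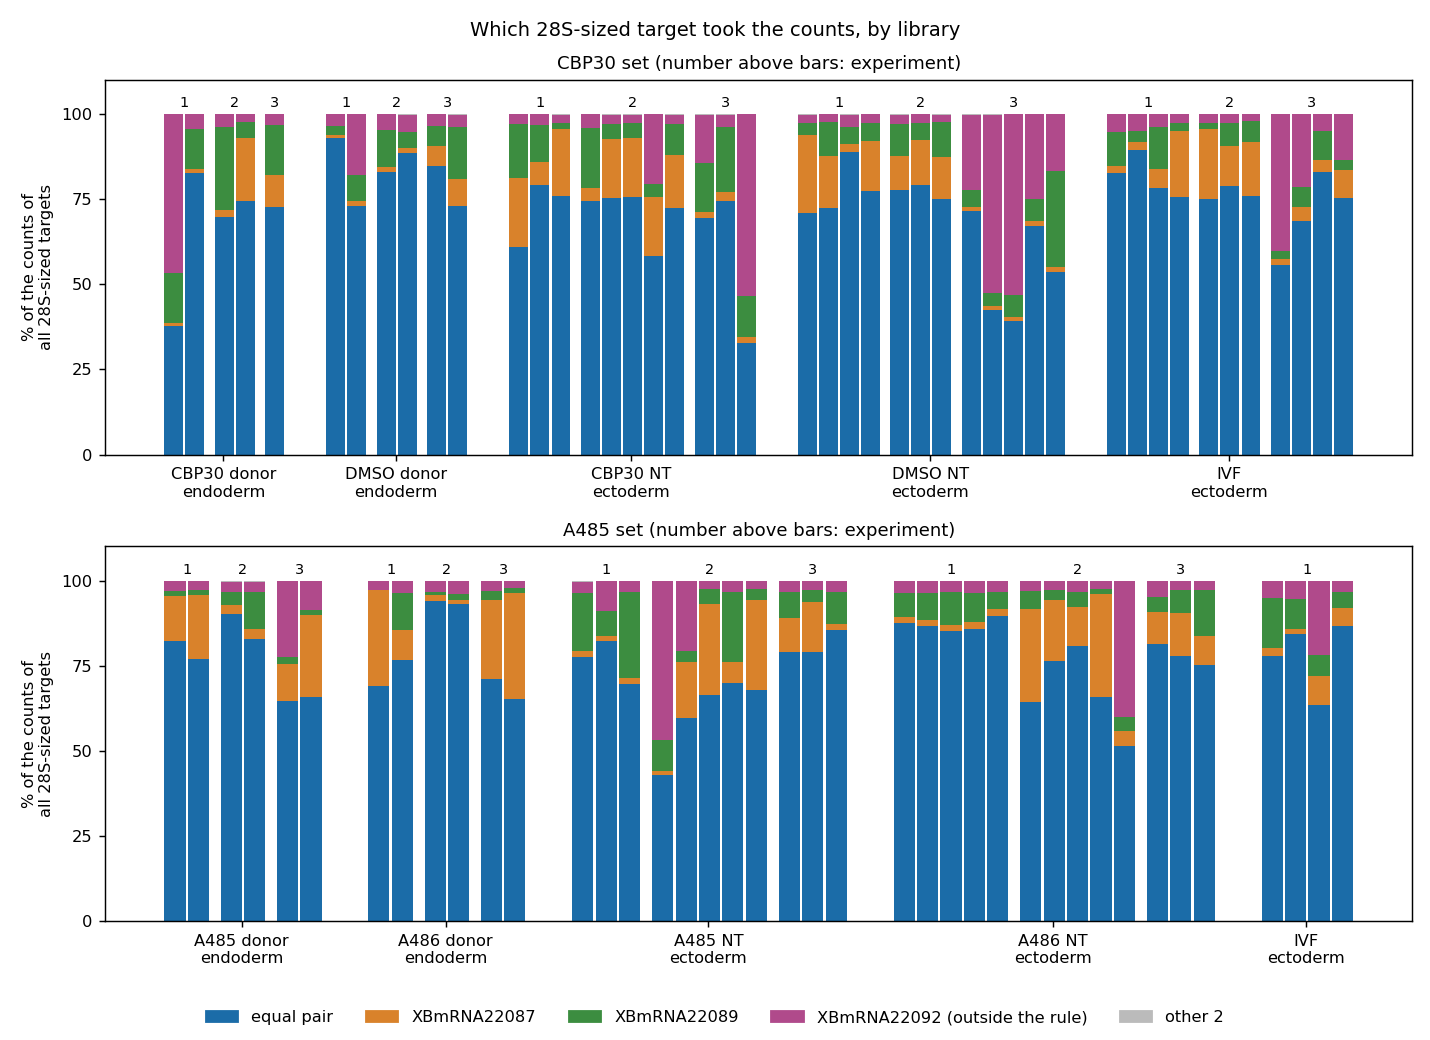
Make-up of the counts of all 28S-sized targets in each library, in percent, with 1 bar a library, groups from left to right and the experiment number above its bars (CBP30 set above, A485 set below). The equal pair of 4113 bases (XBmRNA22078 and XBmRNA22081) takes the largest part in most bars, and XBmRNA22092, which the length rule leaves out, takes up to 53.2% in NT libraries.

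Adding the 3 targets outside the rule can only raise the 28S-sized share, and it did so in NT and IVF ectoderm alike. All 7 targets together held 3.50% to 8.63% in DMSO NT (mean 5.98% ± 1.67) and 3.56% to 9.89% in CBP30 NT libraries (6.20% ± 1.92), against 0.987% to 11.9% in IVF libraries (2.57% ± 3.20), or up to 3.92% (1.64% ± 0.832) without library 1 of experiment 3. In that IVF library 40.0% of these counts lay on XBmRNA22092. Its log2 fold change in DMSO NT over IVF was 0.70 ± 0.94 with all libraries and 3.22 ± 0.76 without that one.

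Per base, the 28S-sized and 18S-sized targets were near balance in IVF ectoderm, and the 28S size was ahead in NT ectoderm of the CBP30 set. The ratio of the summed TPM (transcript abundance corrected for length) of all 28S-sized targets to the 4 18S-sized ones was 1.18 to 1.57 in DMSO NT libraries (1.38 ± 0.121) and 0.773 to 1.81 in CBP30 NT libraries (1.41 ± 0.300), against 0.898 to 1.17 in IVF libraries (1.03 ± 0.0850). All 12 DMSO NT libraries and 9 of 11 CBP30 NT libraries lay above every IVF library, and 1 CBP30 NT library lay below them. In the donors it was 0.803 to 1.13 with CBP30 and 0.885 to 1.42 with DMSO.

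For the A485 set the ratio differed between experiments, untested. It was 1.04 to 1.48 in the 8 NT libraries of experiment 1, 0.802 to 1.02 in the 10 of experiment 2 and 1.14 to 1.73 in the 6 of experiment 3. IVF libraries, of experiment 1, had 0.852 to 1.23. Experiment 2 of the A485 set is thus the only one of the 6 experiments in which no NT library exceeded 1.02.

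**Figure D4:**
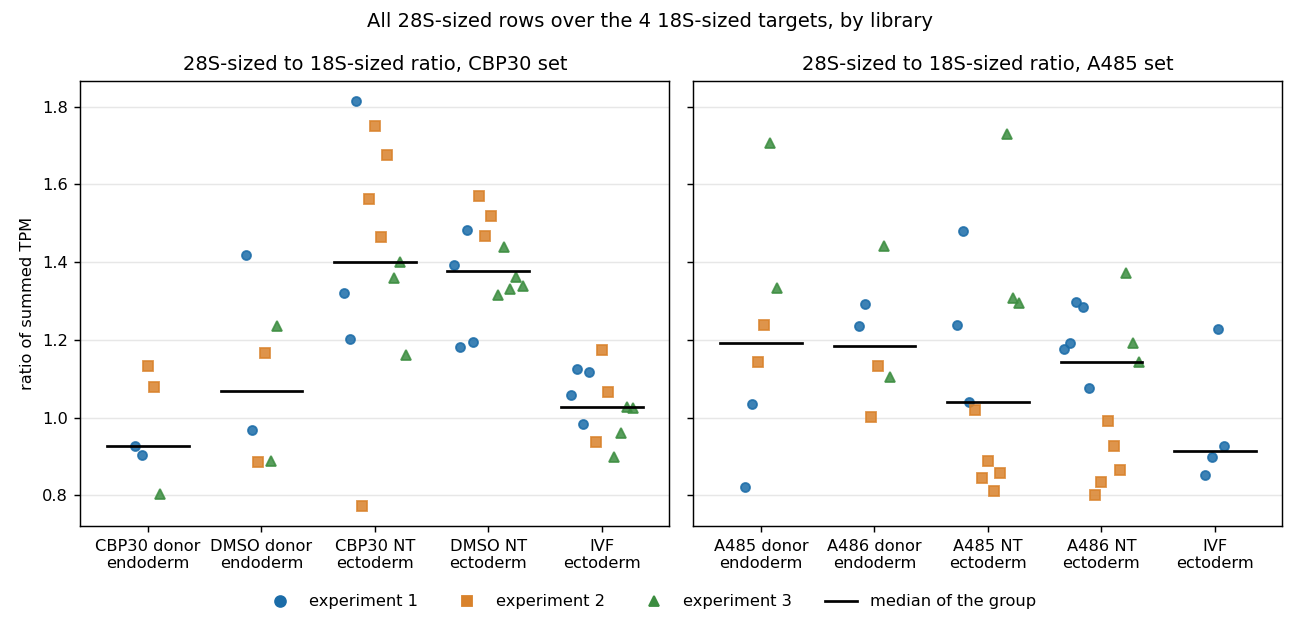
Ratio of summed TPM, all 28S-sized targets over the 4 18S-sized targets, in each library of the CBP30 set (left) and of the A485 set (right), with shape and colour for the experiment and a bar for the group's median. DMSO NT libraries lie at 1.18 to 1.57, above IVF libraries at 0.898 to 1.17, and the 10 NT libraries of experiment 2 in the A485 set lie at 0.802 to 1.02.

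The 5.8S-sized neighbours, 7 targets of 154 bases with equal counts, did not follow the members in NT ectoderm of the CBP30 set. Their sum held 0.0148% to 0.0420% in DMSO NT and 0.0186% to 0.0442% in CBP30 NT libraries, against 0.0203% to 0.0477% in IVF libraries, and each gave log2 fold changes of -0.25 ± 0.18 and -0.29 ± 0.17 that missed the threshold (edgeR adjusted p for XBmRNA22076 = 0.361 and 0.226). In DMSO donors the sum was 0.00176% to 0.00677%, below every NT and IVF library, and XBmRNA22076 fell by 2.53 ± 0.32 against IVF and by 2.27 ± 0.31 against DMSO NT. Of all targets tested, 33.6% were called lower against IVF and 34% against DMSO NT, where 25.3% lay lower without overlap. In the A485 set XBmRNA22076 rose by 0.76 ± 0.22 in A486 NT (edgeR adjusted p = 0.0272) and by 0.83 ± 0.22 in A485 NT (edgeR adjusted p = 0.0344), beside 1.25 to 3.69 for the members. In the donors of the A485 set, both groups pooled, the 5.8S-sized sum was 0.00332% to 0.0496%. That range overlapped the NT libraries of the set, at 0.0208% to 0.0835%. The counts of the 5.8S-sized targets were not compared per base with those of the longer targets.

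Over libraries, after removal of group means, the targets most like the summed members came from the same numbered run. For the 18S size the Spearman coefficients were 0.899 with XBmRNA22095, 0.853 with XBmRNA22084 and 0.753 with the 5.8S-sized targets over the 45 libraries of the CBP30 set, and 0.873, 0.837 and 0.783 over the 40 of the A485 set. For the 28S size they were 0.875, 0.900 and 0.698 in the CBP30 set and 0.939, 0.898 and 0.740 in the A485 set. XBmRNA41230, at 0.757 with the 28S size in the A485 set, was the only target outside the run among the 5 most alike. XBmRNA22092 was less alike, at 0.581 and 0.321 in the CBP30 set and 0.296 and 0.333 in the A485 set. These are descriptions: the points share libraries, depth and any division of reads among targets of like sequence, which was not checked.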

How the data were processed

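Poly(A) RNA was sequenced with 50-base reads. The deposited tables give, per the file headers, each target's length, its expected counts and its TPM. Per the submitters' processing notes, the deposited expected counts were made with kallisto 0.48. The build is not given in the sources used here. Expected counts were rounded for the tests. The authors' TPM served only for the ratio of 28S-sized to 18S-sized targets.

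Of 115 sample records, 85 had a table. Another 4 tables had no record and entered no group. The rest were not analysed here. Each of 12 contrasts was fitted over all targets with edgeR 4.0.16 (R 4.3.3): filterByExpr, TMM scaling, the quasi-likelihood test, Benjamini-Hochberg adjustment and a threshold of 0.05. The script was tested on simulated data. SE is the fold change over the root of F. Summed shares were described with no test. Alternatives were DESeq2 1.42.0, library totals, scaling without the members, no filter, the experiment as a block, single experiments and omitted libraries. The experiment number in the titles pairs libraries: correlations of same-experiment deviations were above 0.1 in the 6 contrasts within a tissue over 3 experiments. They were not in the 3 of donors with ectoderm. The main fits have no term for the experiment, so their fold changes, SEs, p-values and intervals do not use this pairing. All 8 members are named, with their neighbours in the numbered run. Members and lists were chosen with earlier results of these data known. Tables were made with pandas 2.3.3 and scipy 1.17.1.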

Additional observations from a re-analysis of the deposited data

Results flagged for a closer look

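Among groups of 4 to 10 libraries, 30 checks for a library far from its group gave 11 such values. The limit used is passed about 1 time in 20 where values are normally distributed. That was not checked for these shares, so the number of values measures no excess. Larger groups, among them those of IVF library 1 of experiment 3 (CBP30 set) and A485 NT library 5 of experiment 2, were not checked. The checks overlap, since the 28S-sized share sums targets that were also checked singly, so the 11 values are not separate findings. In the CBP30 set 5 of them came from CBP30 donor library 1 of experiment 3, with a summed 18S-sized share of 14.9%, a 28S-sized share of 27.7%, and 10.4%, 2.70% and 4.24% on XBmRNA22078, XBmRNA22087 and XBmRNA22089. The others were A485 donor library 2 of experiment 1 (28S-sized share 3.44%, XBmRNA22087 0.665%), A486 donor library 1 of experiment 1 (5.02% and 1.46%), A486 donor library 2 of experiment 1 (XBmRNA22089, 0.0866%) and IVF library 4 (28S-sized share 1.06%).

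A difference between experiments passed edgeR's test, with Benjamini-Hochberg adjustment, in 3 contrasts of donors with ectoderm. For XBmRNA22087 the adjusted p was 0.0377 in DMSO donors against IVF, 0.000375 in DMSO donors against DMSO NT and 0.000837 in A486 donors against A486 NT. For XBmRNA22078 and XBmRNA22081 it was 0.031 in A486 donors against A486 NT.

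In 2 of the 4 tables with no sample record both shares exceeded the highest IVF library of the A485 set (0.496% and 1.06%). The third had 1.49% in the 18S size and 3.78% in the 28S size, and the fourth 0.700% and 1.11%. By name all 4 are IVF tables, but no sample record ties them to a group, so they entered no contrast. The shares of the third lay within the range of the NT libraries of the A485 set (1.45% to 4.83% and 1.87% to 9.65%), and those of the others below it.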

How the results depend on the processing

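The number of members called changed with the setting, as did the share of all targets called in the same direction, given in parentheses. Members with equal counts are called together, so a change in these numbers can be a change in a single measure. In DMSO NT against IVF 3 of 8 were called higher (12.6%), with 7 by DESeq2 (13.7%) and 1 with no filter (4.81%). The count was 6 within experiment 1 (1.34%) and 0 within experiments 2 (11.6%) and 3 (2.62%). With a library or experiment left out it was 1 to 7 (0.916% to 12.3%). In CBP30 NT against IVF it was 4 (13.6%), with 8 by DESeq2 (14.7%) and 0 within experiments 2 (8.92%) and 3 (0.375%). It was 0 to 8 with a library or experiment left out (0% to 13.3%). In DMSO donors against IVF 1 was called lower (33.6%), but 6 higher within experiment 1 (30.1%) and 0 lower within experiment 3 (29.7%). With libraries left out 0 to 1 were called lower (28.4% to 33%). In DMSO donors against DMSO NT 8 were called lower (34%), with 1 within experiment 1 (24.4%) and 5 within experiment 3 (29.7%). In A486 donors against IVF 7 were called higher (24.6%), with 3 by library totals (15.1%) and 1 to 7 with an IVF library left out (20.7% to 24.7%). No count is given with a donor library left out, since a lone donor would remain. Without donor library 1 of experiment 1, the share of the donor left lay below every IVF library in both sizes, narrowly so in the 28S size. The fitted log2 fold change of XBmRNA22078 was above 0 in every setting run, from 0.34 to 2.86. In A486 donors against A486 NT 7 were called lower (34.5%), but within experiment 1 there was 1 call and it was higher (30.3%). With a library or experiment left out 1 to 7 were called lower (30.4% to 34.8%). Single experiments hold fewer libraries. With the experiment as a replicate block the counts in the first 4 contrasts were 3 (16.3%), 4 (18%), 1 (34.3%) and 8 (34.9%). The count was 7 (35.5%) in A486 donors against A486 NT. Each of these counts was as without the block, while the share of all targets called was larger. In the 4 inhibitor contrasts the count was 0 with the block, where at most 0.106% of all targets were called in 1 direction. It was 0 in the other settings too, where the share of all targets reached 1.88% (called lower by DESeq2 in CBP30 against DMSO donors). DESeq2 gave no adjusted p for the members in CBP30 against DMSO donors. The median log2 fold change of all targets was -0.38 to -0.70 with library totals, against -0.05 to 0.02 with TMM, in the 4 contrasts of control donors with ectoderm, and -0.22 to 0.18 against -0.02 to 0.02 in the other 8.

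The log2 ratio of mean 18S-sized shares moved to 1.56 by medians and 1.57 within experiment 1 in DMSO NT against IVF, where it was -0.01 within experiment 3, and to 1.68, 1.75 and, within experiment 3, -0.08 in CBP30 NT (0.39 to 1.53 with libraries left out). The 28S-sized one moved to 0.47 within experiment 3 in DMSO NT, and to 2.24 and 0.65 within experiments 1 and 3 in CBP30 NT. In DMSO donors against IVF it moved to 0.62 (18S) and 0.65 (28S) within experiment 1 and -1.75 (28S) within experiment 2, and against DMSO NT to -0.95 and -2.91 (18S) and -1.24 and -3.54 (28S) within experiments 1 and 2. In CBP30 against DMSO donors it moved to 0.28 (18S) and 0.54 (28S) by medians, -0.31 and -0.81 within experiment 1, 0.67 (18S) within experiment 2 and 4.95 and 4.69 within experiment 3, and ran from 0.00 to 3.82 and from -0.25 to 3.57 with libraries left out. In A486 donors it ran from -0.66 to 2.12 and from -0.15 to 2.57 against IVF, and moved to -2.56 and -2.57 within experiment 3 and -2.32 (28S) by medians against A486 NT.

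These log2 fold changes turned sign. Within experiment 3, XBmRNA22077 gave -0.17 in DMSO NT and -0.25 in CBP30 NT against IVF, and XBmRNA22087 -0.71 and -0.16, or -0.08 in DMSO NT without IVF library 1 of experiment 3. In DMSO donors against IVF, XBmRNA22077, XBmRNA22078 and XBmRNA22089 gave 0.93, 1.09 and 0.64 within experiment 1, and -1.48 to 0.06, -1.13 to 0.18 and -0.43 to 0.23 with a library or experiment left out. Within experiment 3 without IVF library 1 these 3 and XBmRNA22087 gave 0.09, 0.14, 0.51 and 0.35, none called. XBmRNA22087 gave 0.48 within experiment 3 in DMSO donors against DMSO NT. In CBP30 against DMSO NT, XBmRNA22077 gave -0.08 within experiment 3 (-0.01 to 0.14 with libraries left out), and XBmRNA22078 and XBmRNA22089 -0.17 and -0.33 within experiment 2. In CBP30 against DMSO donors, XBmRNA22077, XBmRNA22078 and XBmRNA22087 gave -0.08, -0.72 and -0.37 within experiment 1, and XBmRNA22078 -0.33 to 4.14. In A486 donors against IVF, XBmRNA22077 ran from -0.06 to 2.68 and XBmRNA22089 from -5.21 to 0.77. Against A486 NT, XBmRNA22078 gave 0.01 within experiment 2, and XBmRNA22087 -0.29 by library totals, -3.87 and -0.53 within experiments 2 and 3, and -1.39 to 1.36. In A485 against A486 NT, XBmRNA22077 and XBmRNA22087 gave -0.14 and -0.27 within experiment 1, and -0.09 to 0.31 and -0.13 to 0.66. In A485 against A486 donors, XBmRNA22077, XBmRNA22078 and XBmRNA22089 gave 0.30, 0.09 and -0.28 within experiment 1, XBmRNA22089 -0.19 within experiment 3, and XBmRNA22077 0.03 without the library of contradictory labels. With libraries left out they ran from -0.75 to 0.41, -0.63 to 0.26 and -0.26 to 1.03, and XBmRNA22087 from -0.70 to 0.72. The cause was not tested in any of these.

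The libraries were selected on poly(A), so how much rRNA each let through was not measured. Experiments hold 1 to 5 libraries a group, and in the A485 set the IVF tables used are of experiment 1, with 8 further IVF records not analysed here. The omission of the outlying IVF, donor and NT libraries was chosen after seeing the data. Depth limits little here, and the spread between libraries sets the precision.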

Other observations

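The 4 tables with no sample record had totals of 4257482, 10191209, 8711599 and 17850722 expected counts. Their 18S-sized shares were 0.437%, 0.394%, 1.49% and 0.700%, and their 28S-sized shares 0.508%, 0.535%, 3.78% and 1.11%. XBmRNA22092 took 0.336%, 0.280%, 0.123% and 0.663% of their counts.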
